A study of Homo sapiens with 12 samples.

Results

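The zinc finger genes of chromosome 19 were defined as the protein-coding genes that GENCODE 29 places on chromosome 19 (GRCh38) and whose symbol is ZNF or ZFP followed by a number, a trailing letter being allowed. The annotation lists 251 of them. Of these, 152 are among the 15074 genes tested in the authors' deposited tables, and the other 99 were not analysed here. For comparison, the tables also hold 221 zinc finger genes of other chromosomes, chosen by the same symbols, and 691 other protein-coding genes of chromosome 19. Mean expression was at least 1 CPM (counts scaled to library size; 0 on the log2 scale) in 150 of the 152 genes. The symbols were checked against the coding sequences: 150 of the 152 hold at least 1 C2H2 finger, read as a string of paired cysteines, 12 residues and paired histidines. The exceptions are ZNF738, whose annotated coding sequence is short, and ZFP36, which encodes tristetraprolin, an RNA-binding protein with fingers of another type that marks mRNAs for decay.

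C2H2 zinc fingers are small folds held by a zinc ion, and arrays of them read DNA sequence. Human chromosome 19 carries the largest share of these genes, in tandem clusters that grew by repeated duplication. Many of them join the array to a KRAB box, which recruits the corepressor TRIM28 (KAP1) and through it the histone methyltransferase SETDB1 and HP1 proteins, so that chromatin over bound sites, often retrotransposons, is silenced.

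RNA was measured in HCT116, a human colorectal carcinoma line, in 4 groups of 3 libraries. FH-5xA and FH-WT are AGO2 knockout cells reconstituted with FH-tagged AGO2, as the 5xA mutant or as wild type, and they share the knockout background with the AGO2 knockout group. Parental cells carry no such change. AGO2 is an Argonaute, the protein a microRNA directs to the mRNAs it represses. The study asked which transcripts separate cells with the wild-type protein from cells with the mutant. Each group is a single line, grown in wells seeded with 500000 cells and collected after 48 h, so p-values reflect well-to-well spread and not the spread over lines made independently. FH-WT, FH-5xA and knockout cells descend from knockout cells, and the sources used here do not give how many clones stand behind each. In bulk RNA, fewer cells that express a gene and less RNA per cell cannot be told apart.

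No values per library were used. The authors' deposited tables give, per gene, a log2 fold change, a mean expression, a likelihood ratio score from edgeR and a false discovery rate (FDR, adjusted by the Benjamini-Hochberg method), and a gene is called here at an FDR under 0.05. Standard errors (SE) were derived from the score. A fitted level per group, in CPM, was derived by spreading the mean expression over the 4 groups by the fold changes. It carries no error of its own, and the SE of the fold change stands beside it. The depth of the libraries is unknown. Mean expression of the 152 genes ran from -0.10 to 8.59 with a median of 3.85 on the log2 CPM scale, against a median of 4.45 for all genes.

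AGO2 mRNA was lower in knockout than in parental cells in the authors' deposited table (log2 fold change -0.35 ± 0.07). Against knockout it was 0.73 ± 0.07 in FH-5xA and 0.75 ± 0.07 in FH-WT cells in the deposited tables, and its difference between FH-5xA and FH-WT cells was -0.02 ± 0.07. Of 10 colorectal epithelial markers 6 are in the tables, and 3 of them, CDH1, EPCAM and KRT18, were called lower in knockout than in parental cells, with none higher. Of the markers of other cell types, 0 of 4 for blood and 0 of 3 for endothelium are in the tables, and 1 of 4 for fibroblasts, COL1A1, was called higher in the knockout. Of 4 embryonic kidney and neural markers 2 are in the tables, PAX2 called higher and PAX6 called lower in the knockout. The part of these shifts in the results that follow was not tested.

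Zinc finger transcripts were broadly lower in knockout than in parental cells. Of the 152 genes 77 (50.7%) were called lower and 2 were called higher in the authors' deposited table, where 21.2% of all genes were called lower and 23.2% higher. The median log2 fold change of the 152 was -0.30, against -0.01 for all genes, and 131 of the 152 lay below 0. The quartiles were -0.50 and -0.11, and the median SE was 0.11. Zinc finger genes of other chromosomes stood between, with 73 of 221 called lower (33.0%), 38 called higher and a median of -0.12. Other protein-coding genes of chromosome 19 had 104 of 691 called lower (15.1%), 109 called higher and a median of -0.05. These shares are descriptions, since neighbouring and duplicated genes are not independent.

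**Figure D1:**
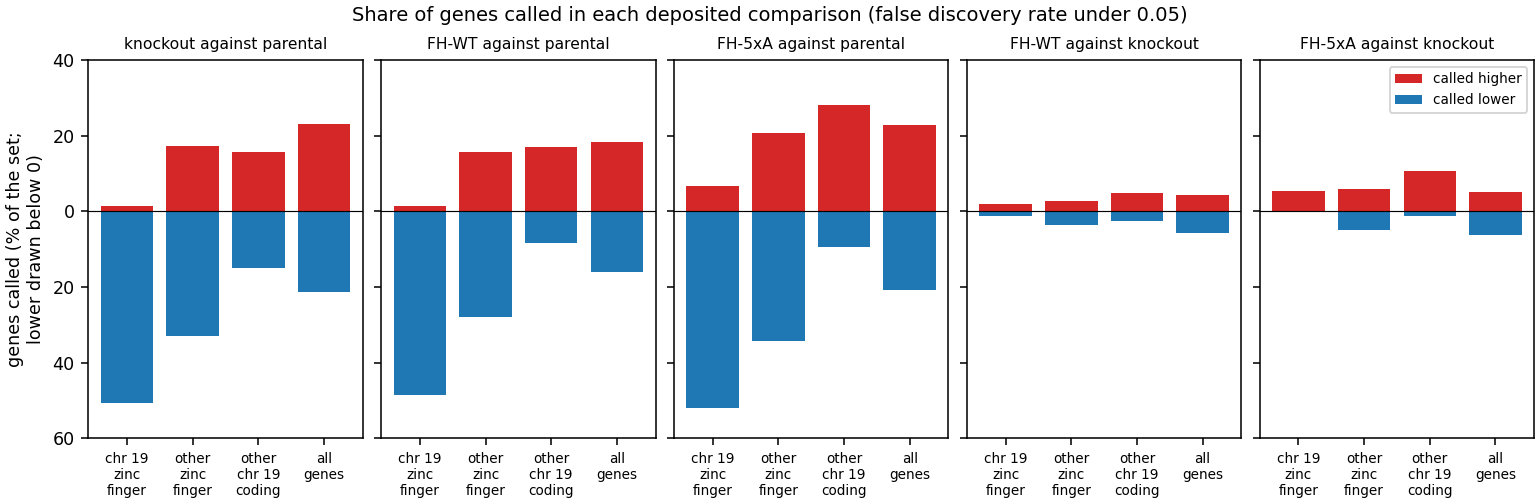
Share of genes called in each of the 5 deposited comparisons, in % of the set, with genes called higher drawn above 0 (red) and genes called lower drawn below 0 (blue), for zinc finger genes of chromosome 19, other zinc finger genes, other protein-coding genes of chromosome 19 and all genes. The zinc finger genes of chromosome 19 have the longest blue bars in the 3 comparisons with parental cells, at 50.7%, 48.7% and 52.0%, and hardly any in the 2 comparisons with knockout cells.

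The deepest losses were ZNF850, ZNF615 and ZNF550, which all encode C2H2 proteins with the KRAB string described further on. ZNF850 (ENSG00000267041, chromosome 19, 36714383 to 36772825, minus strand) had fitted levels of 0.055 CPM in FH-5xA, 0.049 CPM in FH-WT and 0.065 CPM in knockout cells, against 3.55 CPM in parental cells. ZNF615 (ENSG00000197619, 51991332 to 52008230, minus strand) had 0.148 CPM in FH-5xA, 0.006 CPM in FH-WT and 0.119 CPM in knockout cells, against 5.01 CPM in parental cells. ZNF550 (ENSG00000251369, 57535257 to 57559863, minus strand) had 1.49 CPM in FH-5xA, 1.28 CPM in FH-WT and 1.28 CPM in knockout cells, against 6.20 CPM in parental cells. All 3 were thus low in every line that descends from the knockout and higher in parental cells alone, and returning AGO2 in either form left them low. The log2 fold change of ZNF550 in knockout against parental cells was -2.27 ± 0.17 in the authors' deposited table, with an adjusted p of 5.31e-37 (edgeR, Benjamini-Hochberg). The deposited fold changes of ZNF850 and ZNF615 depend on the prior count that edgeR adds to near-empty groups and are no measure of size. Their fitted levels in the knockout-derived lines are solved from those fold changes, so they show that the levels are near zero and do not order the 3 lines. Both genes are in the tables through their parental level, so no p is given for them.

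The sequences at the starts of these 3 genes are shown because their transcripts were furthest below parental cells in the knockout; capitals mark CG dinucleotides, the sites that DNA methylation acts on. Each runs from 250 bases before to 50 bases after the gene's start (RefSeq, GRCh38.p14), 5′ to 3′ on the minus strand.
ZNF850, chr19:36772758-36773057: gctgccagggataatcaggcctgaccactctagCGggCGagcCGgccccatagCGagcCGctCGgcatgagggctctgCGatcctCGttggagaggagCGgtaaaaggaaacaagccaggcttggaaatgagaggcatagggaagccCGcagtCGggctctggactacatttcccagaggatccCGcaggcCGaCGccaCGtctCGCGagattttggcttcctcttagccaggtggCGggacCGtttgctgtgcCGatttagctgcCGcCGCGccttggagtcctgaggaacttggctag
ZNF615, chr19:52008162-52008461: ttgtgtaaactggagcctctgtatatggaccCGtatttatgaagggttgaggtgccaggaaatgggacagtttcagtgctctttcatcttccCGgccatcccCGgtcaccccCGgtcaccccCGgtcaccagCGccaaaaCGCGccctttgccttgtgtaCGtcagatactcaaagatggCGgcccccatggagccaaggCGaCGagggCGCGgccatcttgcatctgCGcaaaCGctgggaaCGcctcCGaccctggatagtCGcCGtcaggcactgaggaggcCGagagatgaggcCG
ZNF550, chr19:57559814-57560113: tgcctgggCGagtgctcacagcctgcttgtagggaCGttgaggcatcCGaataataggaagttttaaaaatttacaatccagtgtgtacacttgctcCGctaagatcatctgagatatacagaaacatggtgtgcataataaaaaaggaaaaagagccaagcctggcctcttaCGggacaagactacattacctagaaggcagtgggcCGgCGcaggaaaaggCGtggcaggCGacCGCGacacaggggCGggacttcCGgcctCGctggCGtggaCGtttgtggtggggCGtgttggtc
They hold 23, 22 and 17 CG dinucleotides in this order, within the range of 6 to 40 over the 136 zinc finger genes of chromosome 19 with a promoter in the RefSeq table, where the median was 21.5. DNA methylation was not analysed here.

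With a parental level of at least 1 CPM and under 0.1 CPM in all 3 knockout-derived lines stood ZNF850 and 2 genes outside the set, of 15074 in all. ZNF615 lay just outside that limit, with 0.148 CPM in FH-5xA and 0.119 CPM in knockout cells, a gap that the prior count can set. At a limit of 0.25 CPM the count was 2 of the 152 and 7 of all genes, and at 0.5 CPM it was 2 of the 152 and 13 of all genes. No zinc finger gene of another chromosome, and no other protein-coding gene of chromosome 19, met any of these limits. After ZNF850 and ZNF615 the next lowest level of any of the 152 genes in any group was 0.748 CPM, that of ZNF628 in parental cells, and none was near zero in parental cells alone. Near-zero levels thus concerned 2 genes that lie far apart, in different clusters. The neighbours of ZNF615 were called lower in the knockout as well, ZNF614 at -0.58 ± 0.11 and ZNF350 at -0.57 ± 0.11 in the authors' deposited table, but stayed far from zero. ZNF614 had 13.4, 15.1 and 12.02 CPM in FH-5xA, FH-WT and knockout cells, against 17.9 CPM in parental cells. On the other side ZNF350, which encodes the BRCA1 partner ZBRK1, had 5.55, 6.28 and 6.60 CPM in the same 3 lines, against 9.82 CPM in parental cells. ZNF567, whose body overlaps that of ZNF850 on the opposite strand, had 18.3, 18.5 and 18.7 CPM in FH-5xA, FH-WT and knockout cells, against 27.6 CPM in parental cells.

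**Figure D2:**
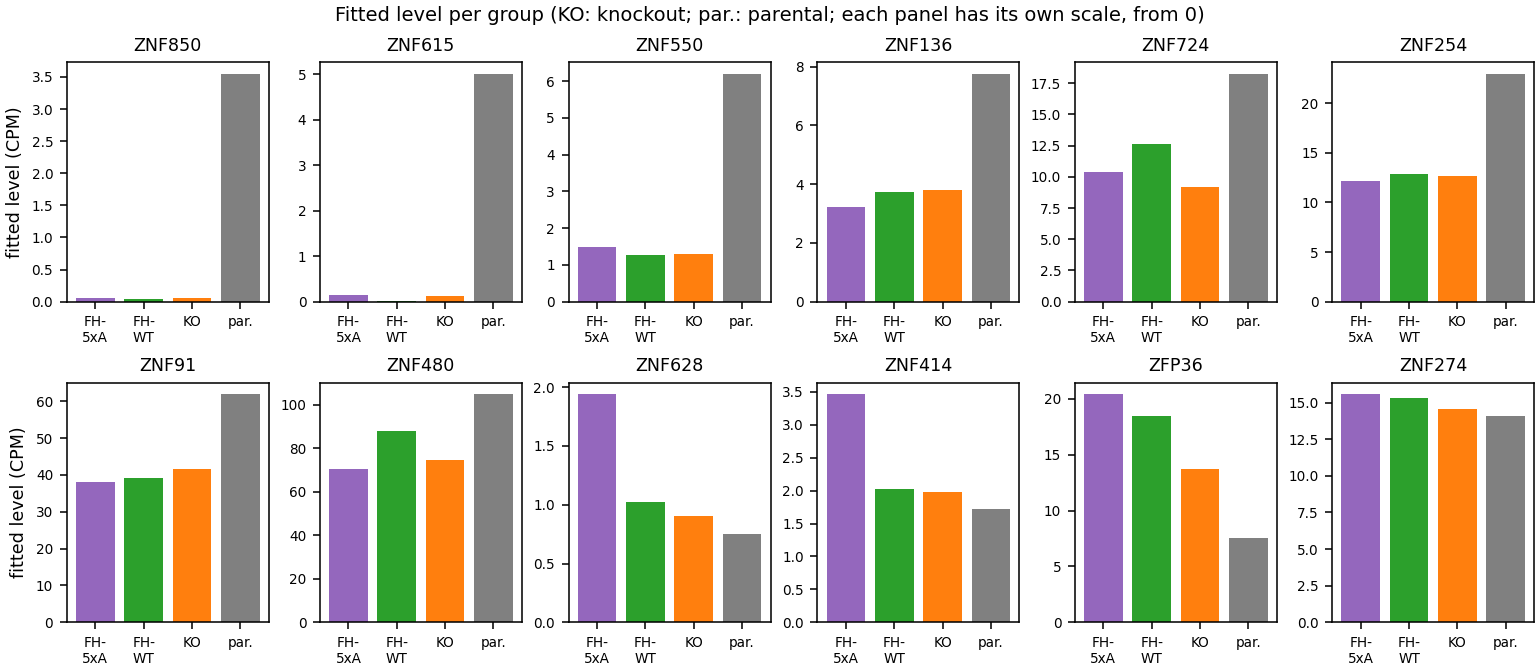
Fitted level in CPM (bars, from 0, each panel on its own scale) of 12 zinc finger genes in FH-5xA, FH-WT, knockout (KO) and parental (par.) cells; the bars are derived from the deposited comparisons and carry no error. ZNF850, ZNF615 and ZNF550 reach 3.55, 5.01 and 6.20 CPM in parental cells and stay under 1.5 CPM in the other lines, while ZFP36 runs the other way and ZNF274 is nearly level.

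Below these 3 came a group of members that kept a good part of their level. ZNF136 (12163064 to 12189881, plus strand), a KRAB-domain repressor, had 3.22 CPM in FH-5xA, 3.73 CPM in FH-WT and 3.81 CPM in knockout cells, against 7.77 CPM in parental cells. Its log2 fold change in knockout against parental cells was -1.03 ± 0.12 in the authors' deposited table. ZNF724 (23221599 to 23250390, minus strand) had 10.4 CPM in FH-5xA, 12.6 CPM in FH-WT and 9.18 CPM in knockout cells, against 18.3 CPM in parental cells, a deposited log2 fold change of -0.99 ± 0.11 in the knockout. All 3 knockout-derived lines were below parental cells for both genes. ZNF738 fell by 0.95 ± 0.13, ZNF254 by 0.86 ± 0.10, ZNF551 by 0.73 ± 0.10 and ZNF816 by 0.69 ± 0.11 on the log2 scale in the authors' deposited table of knockout against parental cells. ZNF599, at 0.774 CPM in knockout and 1.57 CPM in parental cells, changed by -1.02 ± 0.23 in that deposited table.

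There were 2 members called higher in knockout than in parental cells. ZFP36, the tristetraprolin gene, had 20.4 CPM in FH-5xA, 18.5 CPM in FH-WT and 13.7 CPM in knockout cells, against 7.51 CPM in parental cells, a log2 fold change of 0.87 ± 0.18 for the knockout in the authors' deposited table. It has no C2H2 array, so it enters by its symbol. ZNF805 had 14.4 CPM in knockout and 11.6 CPM in parental cells, a deposited log2 fold change of 0.31 ± 0.11 (adjusted p = 0.00958, edgeR, Benjamini-Hochberg). Among the members that encode C2H2 proteins, ZNF805 was therefore the lone one called higher.

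Members were joined into positional clusters where neighbouring annotated genes start within 500000 bases of each other. This gave 10 clusters of at least 5 annotated genes, which hold 236 of the 251 annotated genes and 139 of the 152 measured ones. The fall in the knockout ran through nearly all of them but was uneven. In the cluster from ZNF101 to ZNF254 (19668796 to 24129961), next to the centromere, 12 of 37 annotated genes were in the tables and all 12 were called lower in the authors' deposited table of knockout against parental cells, with log2 fold changes from -0.99 to -0.37 and a median of -0.58. ZNF91, the largest of them with 31 fingers and known to silence SVA retrotransposons, had 38.2 CPM in FH-5xA, 39.3 CPM in FH-WT and 41.5 CPM in knockout cells, against 61.9 CPM in parental cells. ZNF675 had 17.2 CPM in FH-5xA, 18.6 CPM in FH-WT and 17.0 CPM in knockout cells, against 27.3 CPM in parental cells. The 3 lines that descend from the knockout were alike and all below parental cells for both genes.

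In the cluster from ZNF175 to ZNF331 (51571298 to 53580269), which contains ZNF615, 17 of 24 measured genes were called lower in the knockout in the authors' deposited table, with a median of -0.39. ZNF616 had 30.3 CPM in FH-5xA, 33.7 CPM in FH-WT and 31.0 CPM in knockout cells, against 45.6 CPM in parental cells. The fall was not shared by all neighbours: ZNF175, at one end of the cluster, was at 23.2 CPM in knockout and 21.9 CPM in parental cells, a deposited log2 fold change of 0.08 ± 0.10. In the cluster from ZNF565 to ZNF573 (36182060 to 37817300), which contains ZNF850, 7 of 13 were called lower in the deposited table (median -0.43), among them ZFP14 at -0.61 ± 0.09 and ZNF146 at -0.43 ± 0.08. From ZNF302 to ZNF792 (34677639 to 34964049) 3 of 5 were called lower (median -0.54) in the deposited table, ZNF302 changing by -0.59 ± 0.09 and ZNF181 by -0.54 ± 0.10.

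The cluster from ZNF575 to ZNF180 (43525497 to 44500524) had 8 of 16 called lower in the authors' deposited table, and all 16 lay below 0, with a median of -0.33. ZNF180 changed by -0.62 ± 0.09 and ZNF112 by -0.52 ± 0.10 there, while ZNF224, a known KRAB repressor, was at -0.12 ± 0.09. From ZNF653 to ZNF791 (11483427 to 12640098) 6 of 13 were called lower in the deposited table (median -0.24), with ZNF443 at -0.67 ± 0.11 beside ZNF136. From ZNF264 to ZNF446 (57191500 to 58481230), the cluster of ZNF550, 14 of 32 were called lower and 1 higher in the deposited table (median -0.25). From ZNF414 to ZNF846 (8509678 to 9793180) 4 of 11 were called lower in the deposited table (median -0.17), with ZNF121 at -0.48 ± 0.07 and ZNF558 at -0.41 ± 0.11. From ZNF554 to ZNF77 (2819874 to 2944971) it was 1 of 4, namely ZNF77 at -0.30 ± 0.12, in the same deposited table. ZNF554 was at -0.30 ± 0.15 there and was not called.

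The cluster from ZNF628 to ZNF835 (55476332 to 56671783) stood apart from the others in the comparison. There 1 of 9, ZNF581, was called lower in knockout than in parental cells in the authors' deposited table, and the median was -0.09. ZNF524 was at -0.53 ± 0.25, ZNF787 at -0.46 and ZNF580 at -0.26 ± 0.28, all without a call, and 6 of the 9 lay below 0. The median GC content of the coding sequences in this cluster was 72.0%, against 37.6% in the cluster from ZNF101 to ZNF254.

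**Figure D3:**
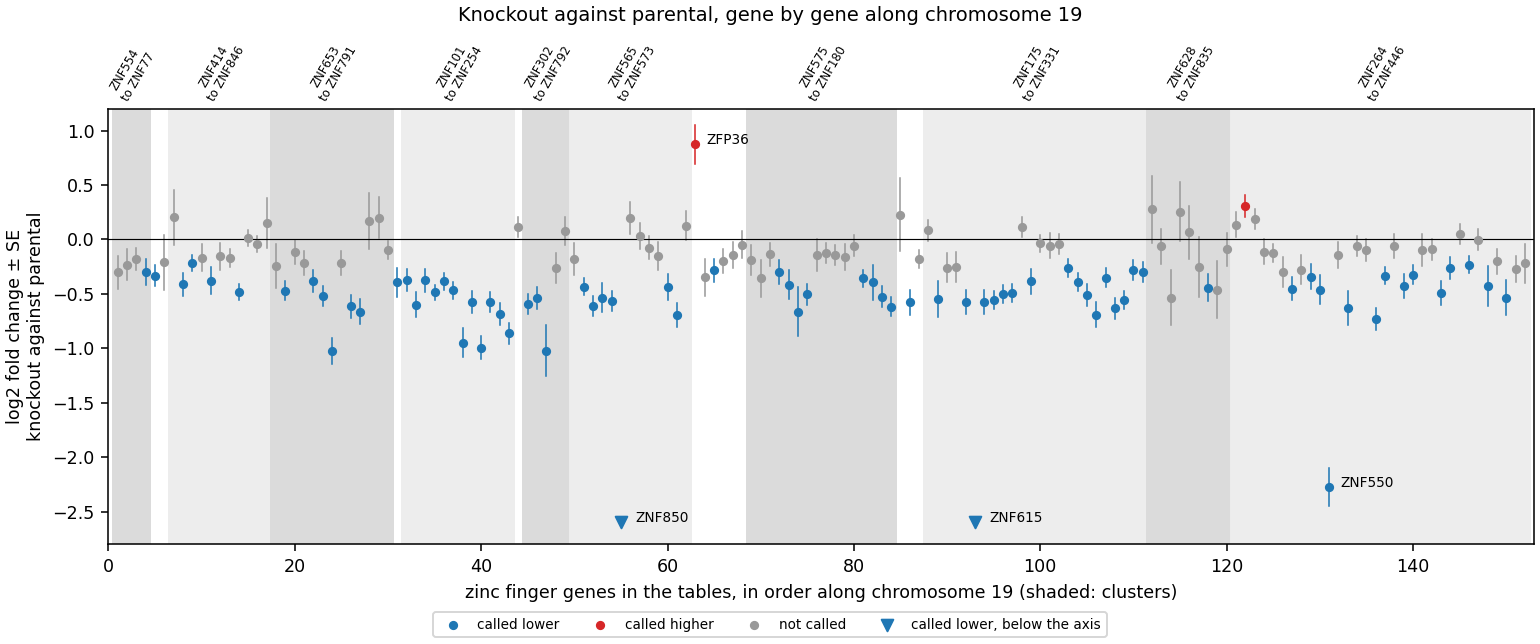
Log2 fold change of knockout against parental cells (points, bars ± SE) for the 152 zinc finger genes in their order along chromosome 19, with the 10 clusters of at least 5 annotated genes shaded and named by their first and last gene; blue points were called lower, red higher and grey were not called. All 12 genes from ZNF101 to ZNF254 are blue, the 9 from ZNF628 to ZNF835 are mostly grey, and ZNF850 and ZNF615 lie below the axis.

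Both reconstituted lines also had lower zinc finger transcripts than parental cells, and these comparisons share the parental libraries with that of the knockout. In FH-5xA against parental cells 79 of the 152 genes (52.0%) were called lower and 10 higher in the authors' deposited table, where 20.9% of all genes were called lower and 22.9% higher. The median was -0.29 for the 152 and 0.00 for all genes. In FH-WT against parental cells 74 of the 152 (48.7%) were called lower and 2 higher in the deposited table, where 16.1% of all genes were called lower and 18.3% higher. The median was -0.27 for the 152 and 0.00 for all genes. Other zinc finger genes had 34.4% called lower in FH-5xA and 28.1% in FH-WT cells against parental cells in the deposited tables. Other protein-coding genes of chromosome 19 had 9.55% called lower in FH-5xA and 8.39% in FH-WT cells.

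Members with the larger falls in these comparisons lie in several clusters. ZNF155 had 1.67 CPM in FH-5xA, 1.72 CPM in FH-WT and 2.199 CPM in knockout cells, against 3.48 CPM in parental cells, with deposited log2 fold changes of -1.06 ± 0.23 for FH-5xA and -1.02 ± 0.25 for FH-WT against parental cells. ZNF493 had 6.73 CPM in FH-5xA, 6.67 CPM in FH-WT and 7.58 CPM in knockout cells, against 11.3 CPM in parental cells. ZNF799 had 6.25 CPM in FH-5xA, 5.89 CPM in FH-WT and 6.35 CPM in knockout cells, against 9.73 CPM in parental cells. In all 3 genes the knockout-derived lines lay close together and below parental cells. ZFP36 had the largest rise against parental cells, 1.44 ± 0.18 in FH-5xA and 1.30 ± 0.18 in FH-WT cells on the log2 scale in the authors' deposited tables. The other rise in FH-WT against parental cells was ZNF865, at 4.56 CPM in FH-WT and 2.79 CPM in parental cells (0.71 ± 0.28 in the deposited table). In FH-5xA against parental cells, ZNF628, ZNF414, ZNF865, ZNF296, ZNF579, ZNF444, ZNF264, ZNF808 and ZNF507 rose as well, by 1.37 ± 0.28 for the first and 0.21 ± 0.09 for the last on the log2 scale in the deposited table.

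Few zinc finger genes were called between FH-WT and knockout cells. In the authors' deposited table of FH-WT against knockout 3 of the 152 were called higher and 2 lower, where 4.21% of all genes were called higher and 5.85% lower (10.1% in either direction). The median was 0.03 for the 152 and 0.01 for all genes, and it was -0.05 for the 152 when centred on other protein-coding genes of chromosome 19. ZNF724 rose by 0.46 ± 0.12, to 12.6 CPM in FH-WT against 9.18 CPM in knockout cells, and its parental level was 18.3 CPM. ZNF480 had 87.9 CPM in FH-WT and 74.4 CPM in knockout cells, a deposited log2 fold change of 0.24 ± 0.09, and ZNF714 had 85.2 CPM in FH-WT and 72.4 CPM in knockout cells, at 0.23 ± 0.07. All 3 were lower in knockout than in parental cells, and FH-WT cells stood between the other two. ZNF805, the rise in the knockout, had 11.3 CPM in FH-WT and 14.4 CPM in knockout cells (-0.34 ± 0.11 in the deposited table). ZNF615 was the other gene called lower, with 0.006 CPM in FH-WT and 0.119 CPM in knockout cells, both near zero.

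In the authors' deposited table of FH-5xA against knockout 8 of the 152 (5.26%) were called higher and 0 lower, where 5.04% of all genes were called higher and 6.24% lower. The share called higher was thus near that of all genes. At an unadjusted p under 0.05 the edgeR counts were 17 higher (11.2%) and 7 lower (4.61%), against 12.1% and 12.5% of all genes. ZNF628 had 1.94 CPM in FH-5xA and 0.906 CPM in knockout cells, with 1.03 CPM in FH-WT and 0.748 CPM in parental cells. Its deposited log2 fold change in FH-5xA against knockout was 1.10 ± 0.27. ZNF414 had 3.46 CPM in FH-5xA and 1.97 CPM in knockout cells, with 2.03 CPM in FH-WT and 1.72 CPM in parental cells (0.81 ± 0.24 in the deposited table). In both, the fitted level of FH-5xA was above the other 3 lines. For ZNF414 its difference from FH-WT cells, derived as described below, was 0.77 ± 0.25 and was not called. ZNF579 rose by 0.57 ± 0.16, ZFP36 by 0.57 ± 0.17, ZNF444, which binds the promoter of an endothelial scavenger receptor gene, by 0.54 ± 0.15, ZNF324B by 0.48 ± 0.16, ZNF581 by 0.41 ± 0.13 and ZNF587 by 0.30 ± 0.09 on the log2 scale in the same deposited table. ZNF628, ZNF579, ZNF581 and ZNF444 all belong to the cluster from ZNF628 to ZNF835, whose median was 0.46.

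The median over the 152 genes in FH-5xA against knockout was 0.02 and over all genes 0.01, but other protein-coding genes of chromosome 19 had a median of 0.16, with 73 of 691 called higher and 8 lower in the authors' deposited table. Centred on those neighbours the median of the 152 was -0.14, so its sign depends on the scaling. Of the 22 zinc finger genes of chromosome 19 with a coding GC content over 60%, 7 were called higher and 0 lower in FH-5xA against knockout in the deposited table. Of the other protein-coding genes of chromosome 19 in that GC class 61 of 497 were called higher and 2 lower. Of all protein-coding genes outside the zinc finger set in that class 267 of 2735 were called higher and 57 lower.

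Few of these genes were called between FH-5xA and FH-WT cells. The difference was derived by subtracting the fold change of FH-WT from that of FH-5xA, both against knockout, and tested by chi-square with 1 degree of freedom, with Benjamini-Hochberg adjustment over 15072 genes. It called 2 of the 152 genes higher and 2 lower in FH-5xA, where 1.98% of all genes were called higher and 2.13% lower (4.11% in either direction), and the median was -0.01 against 0.01. ZNF628 was higher in FH-5xA, with 1.94 CPM against 1.03 CPM in FH-WT cells, a log2 difference of 0.92 ± 0.29 (adjusted p = 0.0417, Benjamini-Hochberg). ZNF480 was lower, with 70.3 CPM in FH-5xA against 87.9 CPM in FH-WT cells, a difference of -0.32 ± 0.09. ZNF766, its neighbour, had 47.2 CPM in FH-5xA against 56.7 CPM in FH-WT cells, a difference of -0.27 ± 0.09. ZNF615 was called higher in FH-5xA, but its 0.148 CPM in FH-5xA and 0.006 CPM in FH-WT cells are both near zero and give no fold. At an FDR under 0.01 ZNF615 alone was called, a call that rests on near-zero levels. With the variance taken as the sum of the 2 squared SEs, 0 of the 152 were called. That sum also counts the knockout variance, which cancels in the difference, so it is a stricter setting. At an unadjusted p under 0.05 the sum gave 9 of the 152 (5.92%), against 7.33% of all genes. ZNF550 and ZNF850 were not called, at differences of 0.22 ± 0.25 and 0.18 ± 1.06.

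**Figure D4:**
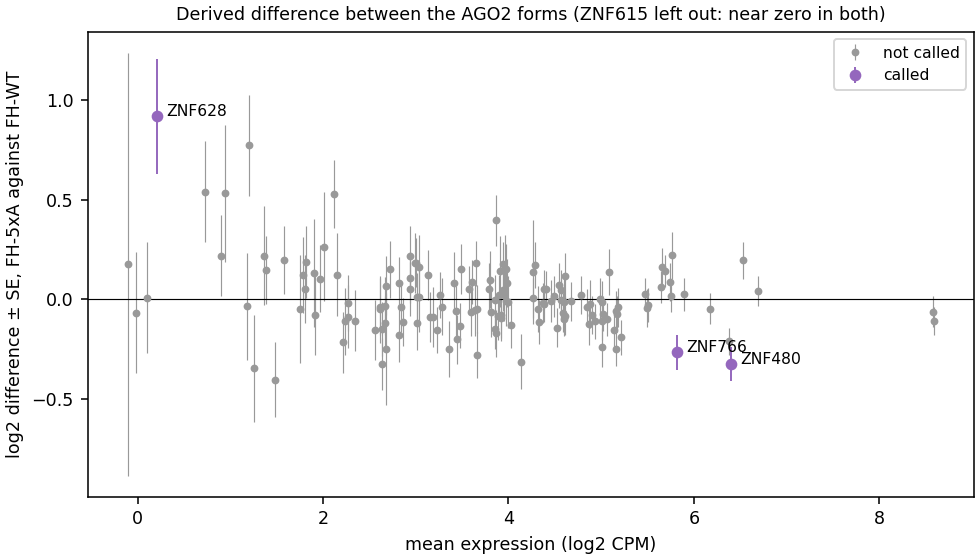
Derived log2 difference of FH-5xA against FH-WT cells (points, bars ± SE) by mean expression in log2 CPM for the zinc finger genes of chromosome 19, with genes called at an FDR under 0.05 in purple and ZNF615, near zero in both lines, left out. ZNF628 stands at 0.92 and ZNF766 and ZNF480 at -0.27 and -0.32, and the spread widens toward low expression.

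Some members have known binding targets or partners. A list of 45 zinc finger genes with a known role, some of them on other chromosomes, holds 23 of the 152 under the symbols used here. Of these 23, 8 were called lower and 1 higher in knockout than in parental cells in the authors' deposited table. All genes had 21.2% called lower and 23.2% higher there, and the 152 had 50.7% and 1.32%. The median of the 23 was -0.24, against -0.30 for all 152. ZNF91 was lower (-0.58 ± 0.09), as was ZNF350 (-0.57 ± 0.11), while ZNF274, which brings SETDB1 to the zinc finger clusters themselves, was at 0.05 ± 0.09 in the deposited table and was not called. ZNF274 had 15.6 CPM in FH-5xA, 15.3 CPM in FH-WT and 14.6 CPM in knockout cells, against 14.1 CPM in parental cells. ZNF160 changed by -0.35 ± 0.09 in the knockout in the deposited table. ZNF649, a repressor of transcription from serum response elements, was at -0.26 ± 0.13 there without a call.

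The corepressor machinery that KRAB proteins use was also measured. Of 32 listed corepressor and heterochromatin genes 30 are in the tables, and 10 were called lower and 4 higher in knockout than in parental cells in the authors' deposited table, with a median of -0.10, where 21.2% of all genes were called lower and 23.2% higher. CBX3, which encodes HP1 gamma, changed by -1.39 ± 0.10, CBX1, which encodes HP1 beta, by -0.48 ± 0.10, TRIM28 by -0.47 ± 0.14 and SUV39H2, a histone methyltransferase, by -0.46 ± 0.07 in the deposited table. DNMT3A, a DNA methyltransferase, was higher at 0.51 ± 0.11, as were ATF7IP2 (0.47 ± 0.12), ATF7IP (0.28 ± 0.10) and KDM4A (0.18 ± 0.08). SETDB1 (-0.08 ± 0.09) and CBX5, which encodes HP1 alpha (-0.10 ± 0.08), were not called. In FH-WT against knockout, CBX3 (0.36 ± 0.10) and CTCF (0.25 ± 0.07), which encodes the insulator protein, were called higher and 0 were called lower in the deposited table, where 4.21% of all genes were called higher and 5.85% lower. In FH-5xA against knockout 0 were called higher and 2 lower, SMARCAD1 (-0.26 ± 0.07) and HDAC1 (-0.22 ± 0.07), a share near the 6.24% of all genes called lower. CBX3 was the lone gene of the list called between FH-5xA and FH-WT, at a derived difference of -0.33 ± 0.10.

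The share of members called lower in the knockout went with the base composition of the coding sequence. Zinc finger genes of chromosome 19 had a median coding GC content of 43.6%, against 62.8% for other protein-coding genes of the chromosome and 52.4% for protein-coding genes that are no zinc finger gene. Under 42% GC, 42 of 58 members (72.4%) were called lower in the authors' deposited table of knockout against parental cells, and from 42 to 50% it was 29 of 62 (46.8%). From 50 to 60% it was 3 of 10, and over 60% 3 of 22 (13.6%). Medians of the members' log2 fold change were -0.48, -0.26, -0.10 and -0.20 in these 4 classes, so they did not rise over the last step. The shares called also depend on the size of the SE, and its part in them was not tested. Protein-coding genes that are no zinc finger gene had 27.7%, 22.8%, 22.0% and 15.6% called lower in the 4 classes, from low to high GC. They had 24.3%, 28.2%, 29.2% and 21.8% called higher, and medians of -0.04, 0.01, 0.03 and 0.00. Over 60% GC their share called was thus the smallest in both directions. Zinc finger genes of other chromosomes had 34 of 68 called lower under 42% GC and 6 of 50 over 60%. In the lower GC classes the zinc finger genes were thus called lower more often than other genes of like composition, as a description of these lines.

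**Figure D5:**
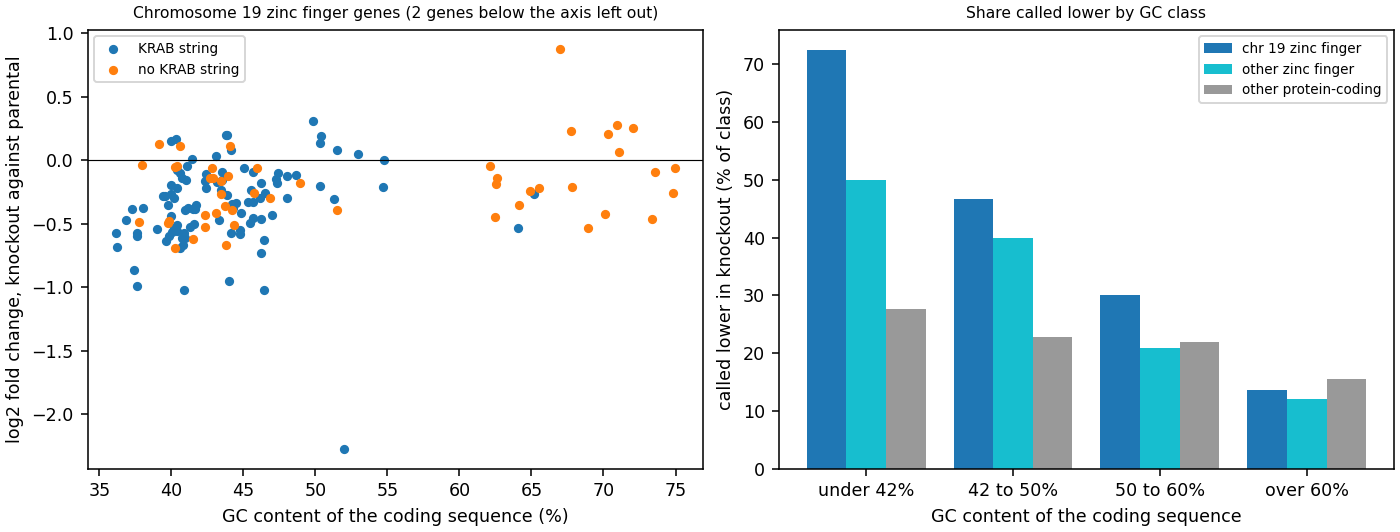
Left, log2 fold change of knockout against parental cells by GC content of the coding sequence in % for the zinc finger genes of chromosome 19, with genes that hold the KRAB string in blue and others in orange (ZNF850 and ZNF615 lie below the axis and are left out); right, share of genes called lower in each GC class, in %, for zinc finger genes of chromosome 19, other zinc finger genes and other protein-coding genes. The share for chromosome 19 falls over the classes from 72.4% to 13.6%, and for other protein-coding genes from 27.7% to 15.6%.

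The KRAB box was looked for as a short conserved string near the protein's start, which misses variant boxes such as that of ZNF224. Of 103 members with the string 60 were called lower (58.3%) and 1 higher in the authors' deposited table of knockout against parental cells, and of 49 without it 17 were called lower (34.7%) and 1 higher. Zinc finger genes of other chromosomes showed a like split, with 31 of 56 lower (55.4%) among those with the string and 42 of 165 (25.5%) among those without. By number of fingers, with a median of 12 and up to 31, the share called lower was 3 of 11 with 0 to 4 fingers, 17 of 33 with 5 to 9, 36 of 63 with 10 to 14 and 21 of 45 with 15 or more. By mean expression it was 7 of 22 under 2, 35 of 70 from 2 to 4, 30 of 53 from 4 to 6 and 5 of 7 over 6 on the log2 CPM scale. Protein-coding genes that are no zinc finger gene had 13.2%, 17.0%, 21.7% and 26.8% called lower in these 4 classes, so their share also went up with expression.

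The repeats that encode the fingers also repeat microRNA seed sites, and for AGO2 these are the sequences of interest. The mature microRNAs below are from RefSeq (GRCh38.p14), with the seed, bases 2 to 8, in capitals; miR-181a-5p lies at chr1:198859108-198859130 and miR-23a-3p at chr19:13836595-13836615, both on the minus strand.
hsa-miR-181a-5p: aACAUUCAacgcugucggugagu
hsa-miR-23a-3p: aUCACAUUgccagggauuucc
The match to the miR-181 seed, TGAATGT, occurs 601 times in the coding sequences of the 152 genes. It is present in 111 of them (73.0%), against 49.8% of other zinc finger genes and 12.3% of protein-coding genes that are no zinc finger gene. Its density was 2.21 per kb of coding sequence in the 152 and 0.082 per kb in the last set. Of the 601 sites 590 (98.2%) stand in the same reading frame, and the commonest surroundings, with the site in capitals, come from the linker that joins one finger to the next or from the start of the finger after it.
Coding sequence of chromosome 19, 8 sites in 4 genes: ttacaagtgtaaTGAATGTggcaaggtt
Coding sequence of chromosome 19, 5 sites in 3 genes: agagaaaccctaTGAATGTaaggaatgt
Coding sequence of chromosome 19, 5 sites in 4 genes: tgagaaaccctaTGAATGTaaggaatgt

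Members with these sites had median log2 fold changes below 0 in knockout against parental cells, and so had members without them. Members called lower in the authors' deposited table of knockout against parental cells were 15 of 41 with no miR-181 site, 17 of 21 with 1 to 2, 18 of 44 with 3 to 5 and 27 of 46 with 6 or more. Medians of the log2 fold change in these classes were -0.24, -0.39, -0.21 and -0.36, in that order. Protein-coding genes that are no zinc finger gene had medians of 0.00, 0.09, 0.20 and 0.38 over the same classes, from 10017, 1348, 40 and 11 genes. Zinc finger genes of other chromosomes went the other way, with 19 of 111, 20 of 50, 13 of 27 and 21 of 33 called lower and medians of -0.04, -0.18, -0.17 and -0.32. The match to the miR-23 seed, AATGTGA, is in 74 of the 152 coding sequences. There 28 of 78 members without it, 19 of 34 with 1 to 2 and 30 of 40 with 3 or more were called lower in the deposited table. Zinc finger genes of other chromosomes rose alike, with 27 of 125, 25 of 62 and 21 of 34 called lower and medians of -0.04, -0.19 and -0.29. Protein-coding genes that are no zinc finger gene had 21.6%, 20.03% and 23.1% called lower in these classes, with medians of 0.00, 0.08 and 0.14. The part of GC content in these shares was not tested. In FH-WT against knockout the class medians stayed between -0.02 and 0.08 for miR-181 sites. Levels of the microRNAs were not analysed here.

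Promoters of the members were searched for a few motifs. In the RefSeq windows, searched on both strands, the ETS-type motif CCGGAAG was in 61 of 136 members (44.9%), against 37.2% of 183 other zinc finger genes, 19.2% of 9083 protein-coding genes that are no zinc finger gene and 10.7% of all 27305 windows in the table. The YY1-type motif GCCATNTT was in 17.6% of members, 8.74% of other zinc finger genes, 10.5% of protein-coding genes that are no zinc finger gene and 6.82% of all windows. Of members with CCGGAAG 34 of 61 were called lower in knockout than in parental cells in the authors' deposited table, and of those without it 33 of 75. Of members with GCCATNTT it was 9 of 24, and of those without it 58 of 112, where 21.2% of all genes were called lower. In the windows printed above, ZNF550 holds CCGGAAG, ZNF615 holds GCCATNTT and ZNF850 holds neither.

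Levels differed widely among members. Per kb of exon, the mean over groups was highest for ZNF146, at 92.3 CPM per kb, a protein made almost wholly of fingers, followed by ZNF121 at 53.1 and ZNF480 at 17.4 CPM per kb. The median over the 152 genes was 2.61 CPM per kb and the lowest was ZNF850 at 0.118. ZNF146 had 358 CPM in FH-5xA, 374 CPM in FH-WT and 339 CPM in knockout cells, against 459 CPM in parental cells. ZNF121 had 348 CPM in FH-5xA, 375 CPM in FH-WT and 341 CPM in knockout cells, against 476 CPM in parental cells. Both were lower in all 3 knockout-derived lines than in parental cells, with ZNF121 at -0.45 ± 0.07 in FH-5xA and -0.34 ± 0.07 in FH-WT against parental cells in the authors' deposited tables. ZNF562, with 106 CPM in FH-5xA, 103 CPM in FH-WT, 100.3 CPM in knockout and 103 CPM in parental cells, held its level, at a deposited log2 fold change of -0.04 ± 0.07 in knockout against parental cells.

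Duplicated genes can share reads. Of the 152, 48 share a run of at least 75 bases of coding sequence with another annotated member, 13 of them over more than 10% of their runs, ZNF587 and ZNF417 the most at 55.5%. Values of these genes, and of ZNF324B, ZNF443 and ZNF799 among those named, are therefore uncertain. ZNF850 and ZNF550 share no such run and ZNF615 shares 0.139% of its runs. Of the 104 members with no shared run 45 were called lower in the authors' deposited table of knockout against parental cells, against 77 of all 152 (50.7%). The share called lower was thus larger among members with a shared run, whose values are less certain. Gene bodies of 64 members overlap another gene on the same strand and those of 74 overlap one on the opposite strand. The libraries were stranded, but the sources used here do not say whether counting used strand.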

How the data were processed

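Total RNA of 12 HCT116 samples was depleted of ribosomal RNA and sequenced as stranded libraries, per the labels' protocols. The authors aligned and counted reads with TopHat2 2.0.12, Cufflinks 2.2.1 and featureCounts 1.4.6 and tested genes with edgeR 3.8.6 on hg38/GRCh38, per the submitters' processing notes. The deposited files are 5 tables of the authors' comparisons over 15074 genes. Per the file headers, they hold a log2 fold change, mean expression as log2 CPM, a p-value with its likelihood ratio score and an FDR (a p-value adjusted by the Benjamini-Hochberg method). The sources used here do not give the annotation the authors counted on, their expression filter, normalization factors, prior count or strand setting.

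The SE of a fold change was its size over the root of the score. The deposited p-value equalled the chi-square tail with 1 degree of freedom at that score to within 7.36e-15. Group levels were solved from mean expression, taken as the average of the 4 groups, and the fold changes. The variance of the difference of FH-5xA and FH-WT was solved by least squares from the 5 squared SEs, and the procedure was tested on simulated data. The test planned for counts gave way to the deposited one, since the tables hold no values per library; library depth is unknown for the same reason.

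Positions, coding sequences and exon lengths came from GENCODE 29, which holds 15029 of the identifiers, and 45 were not found. Python 3.11.15, pandas 2.3.3, numpy 2.4.6 and scipy 1.17.1 were used. Genes named in the text were, per comparison, the 8 largest called rises and falls at 1 CPM or more, all called derived differences, the 2 highest scores per cluster, the 5 most expressed and the 6 patterns most like ZNF615 and ZNF850. Distances between patterns are not printed, since the prior count sets them for these 2 genes. Others, such as ZNF91, ZNF274, ZNF224, ZNF160, ZNF649, ZNF417, ZNF507, ZNF567, ZNF614 and ZNF675, were named for a known role, their position or an exception. The members, lists, classes and rules were chosen with earlier results of these data known. Alternatives changed the FDR, the fold, the centring, the expression floor, the symbol rule, shared runs, the variance of the difference, the limit for near zero and the joining distance.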

Additional observations from a re-analysis of the deposited data

Results flagged for a closer look

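The response to the AGO2 forms differed between FH-5xA and FH-WT cells, by the chi-square test of the derived difference with Benjamini-Hochberg adjustment over 15072 genes, in 4 zinc finger genes of chromosome 19. In ZNF628 the log2 change against knockout was 0.92 higher in FH-5xA than in FH-WT cells (adjusted p = 0.0417), and in ZNF480 the difference was -0.32 (adjusted p = 0.0117). In ZNF766, which lies next to ZNF480, it was -0.27 (adjusted p = 0.0495). In ZNF615 it was 4.64, a value that depends on the prior count, since both lines are near zero. With the variance taken as the sum of the 2 squared SEs, which also counts the knockout variance that cancels in the difference, 0 of these 4 calls remained. At an FDR under 0.01 the call of ZNF615 alone remained, and it rests on near-zero levels. At 620 calls among 15072 genes the background was 4.11%, and 4 of 152 lies under it.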

How the results depend on the processing

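No paired analysis was possible because the tables hold comparisons of groups and no values per library; for the same reason no replicate could be left out. Of the counts, 25 of 41 stayed within 1.5 times. No single-gene call changed sign, but the alternatives used for single genes could not reverse one. A stricter FDR keeps the fold change, and centring on the median of all genes moved it by little. Calls that also reached 1.5-fold numbered 22 of 79 in knockout against parental cells, 33 of 89 in FH-5xA and 19 of 76 in FH-WT against parental cells. They numbered 2 of 8 in FH-5xA and 1 of 5 in FH-WT against knockout, and 2 of 4 between FH-5xA and FH-WT. In the last 2 of these comparisons they include ZNF615, which is near zero in the lines compared. At an FDR under 0.01, 3 of 8 remained in FH-5xA and 1 of 5 in FH-WT against knockout, and 1 of 4, again ZNF615, in the derived difference. Among members with no shared 75-base run, an alternative chosen after seeing the data that tests fewer genes, calls numbered 46, 54, 48 and 1 in knockout, FH-5xA and FH-WT against parental cells and FH-WT against knockout. Shares of all genes were not computed at the fold limit, at the FDR under 0.01 or for genes with no shared run. The counts at these 3 settings thus give no comparison with all genes. With the variance of the derived difference taken as the sum of the 2 squared SEs it called 0 members, with 9 at an unadjusted p under 0.05 (7.33% of all genes), against 17 with the variance as reported (19.3% of all genes). That sum also counts the knockout variance, which cancels in the difference. Members near zero in all knockout-derived lines numbered 1 under 0.1 CPM and 2 under 0.25 and 0.5 CPM. Of the single-gene calls compared, 15 were lost and 38 kept at an FDR under 0.01. On centring by the median of all genes 1 was lost and 52 were kept, the lost one being ZNF480 in FH-WT against knockout (0.24). Centred on other protein-coding genes of chromosome 19, 2 medians changed sign: that of FH-5xA against knockout went to -0.14, by more than the median SE, and that of FH-WT against knockout to -0.05.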
